A study of Sus scrofa with 2 samples.

Results

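The abundant Ensembl transcripts of 258 to 331 bases in the pig ovary are described here, namely ENSSSCT00000021151 (331 bases), ENSSSCT00000022034 (328 bases) and ENSSSCT00000020295 (258 bases). They were chosen by identifier for their high read share in these same tables, so their abundance is a description and was not tested. All 3 were found in both deposited tables, among 88173 features in all, of which 400 were Ensembl transcripts. The ovaries came from crossbred Landrace and Yorkshire gilts, young female pigs, collected 30 or 90 days after birth from 6 animals kept in one environment on one diet. How many of them entered each pool was not given. Equal amounts of RNA from each animal of an age went into 1 pool, sequenced as 1 library, so the 2 ages have no replicates and no p-value exists. The 30-day library held 9376506 assigned reads and the 90-day library 10706106.

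RNAs of this size that are transcribed by RNA polymerase III fold into compact structures and work without being translated. The best known are the RNA of the signal recognition particle, which guides nascent secreted and membrane proteins to the endoplasmic reticulum, the RNA of RNase P, which trims precursors of transfer RNA, the RNA of RNase MRP, which takes part in ribosomal RNA processing, and 7SK, a nuclear RNA that holds back a transcription elongation factor. They generally lack a poly(A) tail and can therefore be abundant in libraries made from total RNA. The tables do not pair identifiers with names, and 0 of the 88173 identifiers matched the name tables used here. Which RNA each of the 3 transcripts is, and whether RNA polymerase III makes it, was therefore not tested, and the transcripts are called by their lengths. Markers of ovarian cells could not be looked up for the same reason. The transcripts' positions and sequences are not used here.

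The 331-base transcript was the most abundant feature of both pools per unit of length. It had 1850067 reads at 30 days and 1508034 reads at 90 days, which is 19.73% of all reads (95% exact interval 19.71% to 19.76%) and 14.09% (14.06% to 14.11%). Its level was 596099 RPKM (reads per kilobase of length, scaled to the library total) at 30 days and 425551 RPKM at 90 days, the first rank at each age. The intervals given here cover counting error only, since several reads can stem from 1 molecule and pooling hides how animals differ. In a pool, fewer cells that contain an RNA and less of that RNA per cell cannot be told apart.

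The 328-base transcript differed in the opposite direction. It had 519525 reads at 30 days and 908773 reads at 90 days, or 5.54% (5.53% to 5.56%) and 8.49% (8.47% to 8.51%) of all reads. Its level was 168924 RPKM at 30 days and 258792 RPKM at 90 days, and its rank by RPKM went from 3 to 2. By plain read number its rank went from 3 to 4, because a longer Ensembl transcript passed it.

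The 258-base transcript was the least abundant of the 3. It had 194259 reads at 30 days and 127650 at 90 days, or 2.07% (2.06% to 2.08%) and 1.19% (1.186% to 1.199%) of all reads. Its level was 80301 RPKM at 30 days and 46214 RPKM at 90 days, ranks 4 and 5. The order 331, 328, 258 by length was thus also the order of level at both ages, and the intervals of their read shares did not overlap in either library.

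Counted per length, the 3 transcripts together made up most of the signal in the tables. Their RPKM values summed to 53.7% of the RPKM of all listed features at 30 days and 51.4% at 90 days, against 27.3% and 23.8% of the reads. This scale approximates a share of molecules only if reads fall evenly along every feature. The 331-base transcript alone had 37.8% of the summed RPKM at 30 days and 29.9% at 90 days. For the 328-base transcript the share was 10.7% and 18.2%, and for the 258-base transcript 5.10% and 3.25%.

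**Figure D1:**
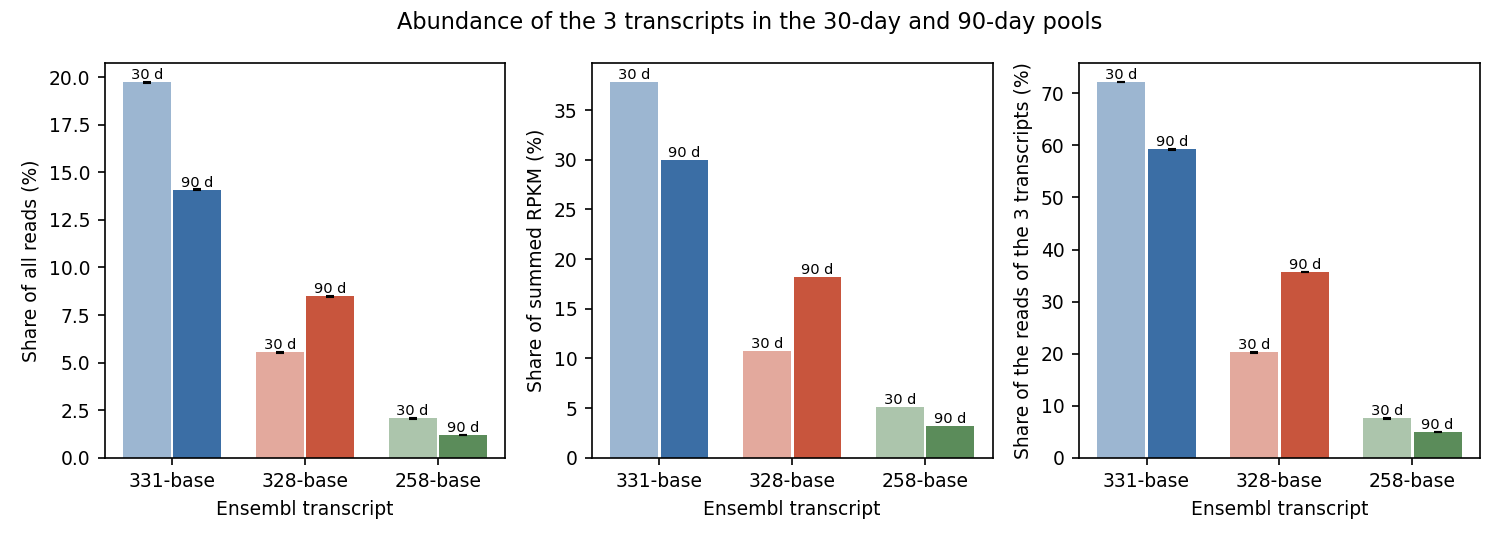
Share of all reads (left), of the summed RPKM of all features (middle) and of the reads of the 3 transcripts (right), in percent, for each transcript in the 30-day pool (pale bar) and the 90-day pool (full bar); error bars in the outer panels are exact 95% intervals of counting error. The 328-base transcript is the one whose bar is taller at 90 days, from 5.54% to 8.49% of all reads.

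The reads of the 3 transcripts were divided differently at 30 and 90 days. They summed to 2563851 of 9376506 assigned reads at 30 days and 2544457 of 10706106 at 90 days. These near-equal counts were 27.3% and 23.8% of all reads. The ratio of the summed reads, 90 days over 30 days, ran from 0.729 to 1.26 over 9 scales. Of the summed reads the 331-base transcript took 72.2% (72.1% to 72.21%) at 30 days and 59.3% (59.21% to 59.33%) at 90 days. The 328-base transcript took 20.3% (20.21% to 20.31%) and 35.7% (35.66% to 35.77%). The remaining 7.58% (7.54% to 7.61%) and 5.02% (4.99% to 5.04%) belonged to the 258-base transcript. Within the trio the share of the 328-base transcript was therefore larger at 90 days, and the shares of the 331-base and the 258-base transcript were smaller.

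Ratios between 2 transcripts of 1 library do not depend on the library total and are the comparison least affected by scaling. Per base of length, the level of the 331-base transcript was 3.53 times that of the 328-base transcript at 30 days (3.52 to 3.54) and 1.64 times at 90 days (1.640 to 1.649). Between the ages this ratio differed 2.15-fold (2.14 to 2.15), with the lower value at 90 days. The 328-base transcript stood at 2.10 times the level of the 258-base transcript at 30 days (2.09 to 2.11) and at 5.60 times at 90 days (5.57 to 5.63), a 2.66-fold difference (2.64 to 2.68). The level of the 331-base transcript was 7.42 times that of the 258-base transcript at 30 days (7.39 to 7.46) and 9.21 times at 90 days (9.16 to 9.26), a 1.24-fold difference (1.23 to 1.25). Both ratios that contain the 328-base transcript thus differed more than 2-fold between the pools, and the ratio of the 331-base to the 258-base transcript did not. Counting starts instead of bases lowered the 328-base over 258-base ratio to 1.89 at 30 days and 5.03 at 90 days, and left the difference between ages as it was.

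**Figure D2:**
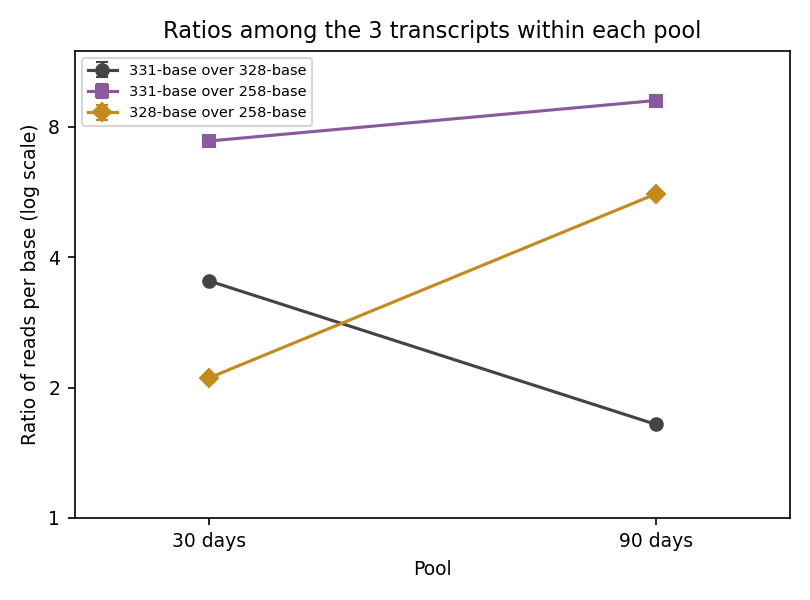
Ratio of reads per base of length between each pair of the 3 transcripts (logarithmic axis) in the 30-day and the 90-day pool; error bars are 95% intervals of counting error and lie within the symbols. The 331-base over 328-base ratio goes from 3.53 to 1.64 and the 328-base over 258-base ratio from 2.10 to 5.60, so their lines cross.

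Differences of this size within a pair were common among other Ensembl transcripts. Of the 76 other Ensembl transcripts of 200 to 400 bases, 13 had at least 100 reads in each library and form 78 pairs. In 52 of these pairs, 66.7%, the ratio within the pair differed at least 2-fold between the ages, and in 33 it differed at least as much as the 328-base over 258-base ratio. The median difference over the 78 pairs was 1.28 on the log2 scale. The 3 pairs described here had differences of 1.10, 0.31 and 1.41 in size on that scale. Over the 1431 pairs of all 54 other Ensembl transcripts with that many reads, of any length, 53.4% differed at least 2-fold. Pairs that share a transcript are not independent, and these counts describe the 2 libraries.

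With all assigned reads as the scale, none of the 3 transcripts reached a 2-fold difference between the ages. The rule used log2((CPM at 90 days + 1)/(CPM at 30 days + 1)), where CPM is reads per 1000000 assigned reads, over features that reached 1 CPM in either library. By this rule 51.3% of the 73973 features compared differed at least 2-fold in either direction, 14.6% higher and 36.6% lower at 90 days. The ratio of read shares, 90 days over 30 days, was 0.714 (0.712 to 0.715) for the 331-base transcript. It was 1.532 (1.527 to 1.537) for the 328-base transcript and 0.576 (0.571 to 0.580) for the 258-base transcript. The median log2 fold of the 3 was -0.49, which is the value of the 331-base transcript, and that of all features compared was also -0.49. The 328-base transcript stood at 0.62 and the 258-base transcript at -0.80, so this median does not describe the 3 as a group.

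The size of these differences depended on what the reads were set against. The 2 longer Ensembl transcripts among the 4 most abundant features took 30.4% of the 30-day library and 46.7% of the 90-day library, and every share of the library total moves with them. With these 2 left out of the total, the summed share of the 3 transcripts was 39.3% (39.25% to 39.33%) at 30 days and 44.6% (44.59% to 44.67%) at 90 days, the reverse of the order with all reads. Of the reads of Ensembl transcripts alone it was 45.2% and 32.9%. Over 9 scales the ratio of the 328-base transcript was above 1 on all 9, from 1.28 (Ensembl reads) to 2.21 (total without the 4 most abundant features), and it reached 2-fold on 6. The 258-base transcript was below 1 on all 9, from 0.483 to 0.831, and more than 2-fold lower on 1, the scale of Ensembl reads, where 43.4% of all features compared were at least 2-fold lower. The ratio of the 331-base transcript lay between 0.599 and 1.03 and was below 1 on 7 of the 9 scales, so its direction depended on the scale. Of these totals, 3 leave out 1 or more of the 3 transcripts themselves, namely the totals without the 4 most abundant features, without the 3 transcripts and of Unigene reads. On the 6 scales where the 328-base transcript was at least 2-fold higher, so were 30.5% of all features compared (total without the 4 most abundant features), 30% (Unigene reads), 21.3% (TMM factors), 21.9% (median-of-ratios factors), 22.8% (upper-quartile factors) and 25.4% (total without the 2 longer abundant transcripts). Its counting interval reached below 2-fold on the TMM scale (1.997 to 2.010) and without the 2 longer transcripts (1.995 to 2.009).

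**Figure D3:**
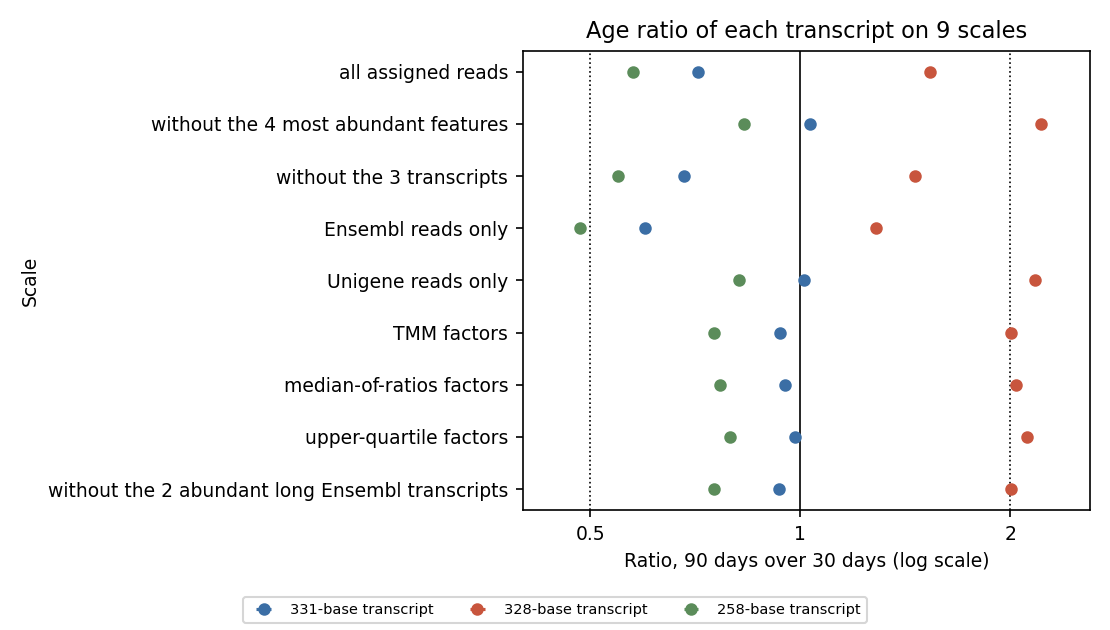
Ratio of each transcript, 90 days over 30 days (logarithmic axis), on 9 scales; the solid line marks no difference, the dotted lines 2-fold, and 95% counting intervals lie within the symbols. The 328-base transcript stays to the right of the solid line and the 258-base transcript to the left of it on all 9 scales, while the 331-base transcript lies between 0.599 and 1.03.

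Among Ensembl transcripts of 200 to 400 bases, the 3 transcripts held nearly all reads. They had 95.5% of the reads of that class at 30 days (95.46% to 95.51%) and 96.4% at 90 days (96.38% to 96.43%). The other 76 transcripts together had 121145 reads at 30 days, 1.29% of the library, and 94885 at 90 days, 0.886%. Of these, 56 were listed at 30 days with a median of 5.5 reads, and 62 at 90 days with a median of 4.5 reads. The highest of them by mean RPKM was ENSSSCT00000031455 (297 bases), with 10774 RPKM at 30 days and 9872 RPKM at 90 days. The next was ENSSSCT00000019904 (237 bases), with 10665 and 4040 RPKM. The gap below the 258-base transcript was thus wide at both ages: its RPKM was 7.45 times the highest value of the others at 30 days and 4.68 times at 90 days. Abundance chose the 3 transcripts, so this gap describes the choice.

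**Figure D4:**
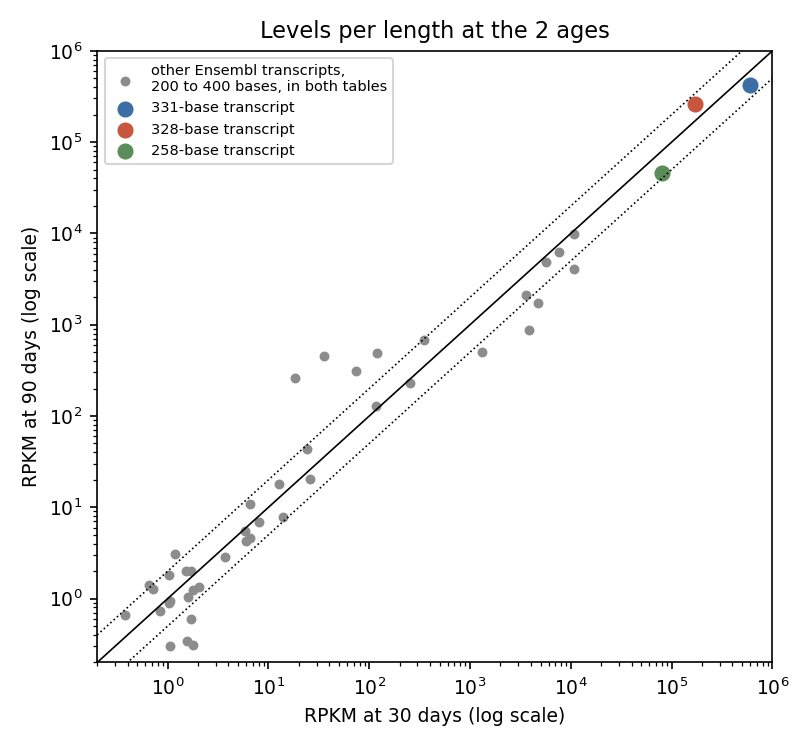
RPKM at 30 days against RPKM at 90 days (both axes logarithmic) for the 3 transcripts and for the 42 other Ensembl transcripts of 200 to 400 bases listed in both tables; 34 others listed in 1 table only cannot be drawn. The solid line marks equal RPKM and the dotted lines 2-fold; the 3 transcripts sit at the upper end, inside the dotted lines.

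The age ratios of the 3 transcripts lay within the range of this class. Of the 25 others that reached 1 CPM in either library, 9 differed at least 2-fold (36%), 5 of them higher at 90 days (20%) and 4 lower (16%), with a median log2 fold of -0.13. Over the 13 with at least 100 reads in each library, the log2 ratio ran from -2.13 to 2.07 with a median of -0.21. The log2 ratio of the 331-base transcript was -0.49, with 5 of the 13 below it and 8 above. For the 328-base transcript it was 0.62, with 10 below and 3 above, and for the 258-base transcript -0.80, with 4 below and 9 above. None of the 3 lay at either end. The nearest log2 ratio to that of the 258-base transcript was -0.75, in a transcript of 204 bases with 6863 and 4670 reads. The nearest to that of the 331-base transcript was -0.29, in a transcript of 276 bases with 19559 and 18278 reads. The nearest to that of the 328-base transcript was 0.96, in a transcript of 255 bases with 832 and 1842 reads. With 2 libraries such likeness rests on a single ratio for each transcript.

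Reads covered nearly the whole length of each of the 3 transcripts at both ages. The deposited coverage of the 331-base transcript was 99.4% at both ages, which leaves 2 bases without a read. The 328-base transcript was covered over 99.7% at both ages, leaving 1 base. Coverage of the 258-base transcript was 99.22% at 30 days and 99.61% at 90 days, leaving 2 bases and 1 base. The covered length of the 328-base and of the 331-base transcript was thus the same at both ages. Each had at least 519525 reads in each pool, so coverage was near its upper limit and could not show a difference in level. Among the 8 others of the class with at least 1000 reads at 30 days, between 3 and 12 bases were uncovered, with a median of 7. At 90 days there were 12 such transcripts, with 2 to 74 uncovered bases and a median of 5. These others had at most 30005 reads at 30 days and 31391 at 90 days, far fewer than any of the 3 transcripts. Differences in coverage and in depth therefore cannot be told apart here. Over all features other than the 3 transcripts with at least 1000 reads, 53 of 213 at 30 days and 44 of 179 at 90 days also had at most 2 bases uncovered. The tables do not say which bases were uncovered.

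The depth over these transcripts was far beyond the number of places a read can take. Features with a single read had a covered length of exactly 90 bases, in 1301 of 1301 such features under 1000 bases at 30 days and 1736 of 1736 at 90 days, so the reads were 90 bases long. A read of that length can start at 242 positions of the 331-base transcript, at 239 of the 328-base transcript and at 169 of the 258-base transcript. Each position of the 331-base transcript therefore had a mean of 7645 reads at 30 days and 6232 reads at 90 days. For the 328-base transcript the mean was 2174 and 3802 reads per position, and for the 258-base transcript 1149 and 755. Even with both strands counted, which gives 484 placements on the 331-base transcript, the same placement was counted many times.

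Other Ensembl transcripts of nearly the same length as the 2 longer transcripts had few reads. Within 5 bases of the length of either of the 2 longer transcripts there were 6 others, of 326 to 334 bases, and none of them had more than 8 reads at 30 days or 5 at 90 days. One of them had exactly 328 bases, with 2 reads at 30 days and 5 at 90 days. Within 5 bases of the 258-base transcript there were 4 others, and the highest of them (255 bases) was listed with 832 reads at 30 days and 1842 at 90 days. The tables count uniquely assigned reads, so reads that fit several near-identical copies could not be assessed, and the level of any such copy is uncertain.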

How the data were processed

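Total RNA of pig ovary was measured in 2 libraries, 1 pool of animals for each age, with the age of each as labelled. The authors' tables hold, per the file headers, the count of uniquely assigned reads of a feature, its length, the percent of its length covered by reads, and RPKM. Counts as deposited added up to the header's total. RPKM as deposited was the count divided by length in kilobases and scaled to that total. The submitters' processing notes name TopHat, Cufflinks and Sscrofa10.2. Annotation and counting tool: not given in the sources used here.

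A feature in 1 table only was given 0 reads in the other. Shares carry exact (Clopper-Pearson) 95% intervals, and ratios carry intervals from the exact interval of one count in the sum of 2, or, for a ratio of ratios, a large-sample interval. The number of possible starts is length minus read length plus 1. TMM, median-of-ratios and upper-quartile factors came from edgeR 4.0.16 (R 4.3.3), and the remaining values from Python 3.11.15 with scipy 1.17.1. The intervals of a ratio of 2 counts and the 2-fold rule (pseudocount of 1 CPM, minimum of 1 CPM) were tested on simulated data. The simulated counts had 4-fold differences and counting error only, and the differences were placed in features well above 1 CPM. Detection of differences near 2-fold or near 1 CPM was therefore not tested. The intervals of shares and of ratios of ratios were not tested in this way. The rule for named features took the 3 transcripts, the 2 highest others of 200 to 400 bases by mean RPKM, and for each transcript the other of that class, with at least 100 reads in each library, whose log2 ratio was nearest. The last were given by length. The transcripts and these rules were chosen with earlier results of these data known.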

Additional observations from a re-analysis of the deposited data

How the results depend on the processing

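No paired analysis was possible because the 2 libraries carry no replicate numbers. Leaving out a library was not run, since it leaves 1 age alone. Measures per length of features of at least 200 bases, and per possible start, were chosen after seeing the data for the summed share. By construction the difference of a pair's ratio between ages is the same under every length measure.

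The ratio of the 331-base transcript, 90 days over 30 days, was 0.714 with all reads and turned above 1 when the 4 most abundant features were left out (1.03) and with Unigene reads (1.01). It was 0.680 without the 3 transcripts, 0.599 with Ensembl reads, 0.934 with TMM, 0.951 with median-of-ratios and 0.984 with upper-quartile factors. In the same order of scales, the 328-base transcript had ratios of 2.21, 2.17, 1.46, 1.28, 2.003, 2.04 and 2.11 against 1.53 with all reads, and the 258-base transcript 0.831, 0.816, 0.549, 0.483, 0.753, 0.767 and 0.793 against 0.576. The ratio of the summed share was 0.869 with all reads and 1.14 without the 2 longer abundant transcripts. These shifts follow from the totals.

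As reads in place of reads per base, the 331-base over 328-base ratio was 3.56 at 30 days and 1.66 at 90 days, the 331-base over 258-base ratio 9.52 and 11.8, and the 328-base over 258-base ratio 2.67 and 7.12. Per possible start they were 3.52 and 1.639, 6.65 and 8.25, and 1.89 and 5.03. The deposited RPKM gave the main values. The summed share per length was 56.3% at 30 days and 52.7% at 90 days over features of at least 200 bases, and 55.1% and 54.3% per possible start.

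Of the other transcripts of the class, 5 were higher and 4 lower. A 4-fold threshold gave 3 and 1, and a class of 150 to 450 bases 9 and 13 of 52. Leaving the 4 most abundant features out of the total gave 10 and 3 of 38. The remaining alternatives (pseudocount 0.1, no filter, at least 5 CPM, 200 to 350 bases, TMM factors) kept both counts within 1.5 times the main ones.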
